A study of Mus musculus with 6 samples.

Results

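The genes described here are the solute carriers that move inorganic ions, metals and monocarboxylates across membranes, chosen by symbol: the Slc4, Slc8, Slc9, Slc11, Slc12, Slc16, Slc20, Slc24, Slc30, Slc39, Slc40 and Slc41 families. The rule took 85 of the 22272 symbols in the deposited count table. Of these, 82 encode carriers and 3 carry a matching symbol but encode other proteins, namely kanadaptin (Slc4a1ap) and the scaffolds NHERF1 (Slc9a3r1) and NHERF2 (Slc9a3r2). The rule reads symbols and not values.

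The libraries came from C2C12, an established line of mouse myoblasts, undifferentiated and taken at day 0. In 3 libraries the cells overexpressed ChREBP-beta, the short and constitutively active form of ChREBP (carbohydrate response element binding protein), a transcription factor encoded by Mlxipl. In the other 3 libraries wild-type cells with green fluorescent protein (GFP) served as the control. The labels do not say how the factor was delivered, whether its cells were a clone, or whether the replicates were separate cultures. The p-values therefore measure the spread among these 6 libraries and nothing beyond it, and that spread may be technical.

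Deposited counts summed to 18567502, 19163834 and 17665571 in ChREBP-beta replicates 1 to 3 and to 18843244, 17850757 and 17600238 in GFP replicates 1 to 3. The 85 symbols took between 0.294% and 0.296% of the counts in ChREBP-beta libraries and between 0.262% and 0.268% in GFP libraries. Mlxipl had 222, 215 and 220.0 CPM (counts scaled to library size) in the ChREBP-beta libraries, against 0.576, 0.719 and 0.501 CPM in the GFP libraries, in the direction of the labels. The summed level of 7 myoblast markers was lower with ChREBP-beta, at 119 to 126 CPM, against 345 to 375 CPM with GFP. All 7 passed the test as lower, but Myog and Pax7 entered it through the GFP group, so their calls are no independent support for a fall. Myog had no count in any ChREBP-beta library, and Pax7 had 0, 0 and 6 counts. GFP replicate 1 stood apart in markers of other tissues. It had 0.523 CPM of 5 lung markers, where the other 5 libraries had 70.2 to 135 CPM. Of 6 liver markers it had 0.209 CPM and GFP replicate 2 had 0.0553 CPM, where the other 4 libraries had 15 to 24 CPM. Of 5 macrophage markers it had 5.34 CPM, where the other 5 libraries had 14.3 to 17.6 CPM, most of it Lyz2. The part of these markers in the carrier results was not tested. In bulk RNA, fewer cells of a type and less RNA per cell cannot be told apart.

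Carriers of these families set the ionic and metal make-up of the cell. Slc39 (ZIP) proteins bring zinc into the cytosol and Slc30 (ZnT) proteins take it out or into organelles. Ferroportin is the known iron exporter of vertebrate cells, while DMT1 brings ferrous iron in. Sodium bicarbonate cotransporters and sodium-proton exchangers raise intracellular pH, chloride-bicarbonate exchangers lower it, and monocarboxylate transporters carry lactate with protons, which contracting muscle releases. ChREBP binds DNA with its partner Mlx at paired E-box-like sites known as the carbohydrate response element.

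Promoter sequences were read from RefSeq (GRCm38.p6) for 64 of the 85 symbols, as windows from 250 bases before to 50 bases after the RefSeq start. The E-box CACGTG, which reads the same on both strands, was found in 8.09% of the promoters of 27025 genes, in 11.6% of those of tested genes and in 12 of the 64 read here. Among tested symbols with a window it was in 2 of 16 that rose (Slc20a1 and Slc30a5), 3 of 15 that fell (Slc12a7, Slc41a3 and Slc39a11) and 4 of 12 that were not called (Slc12a5, Slc12a9, Slc16a1 and Slc39a8). Over all genes it was in 14.8% of those that rose and 10.5% of those that fell. The carbohydrate response element, searched as CANGNG and CNCNTG with 5 bases of any kind between them and also its own reverse complement, was in 0.640% of promoters and in 1 of the 64, that of Slc4a7, 195 bases before a RefSeq start inside the gene, and Slc4a7 fell. Below are the bases before the start for E-box promoters of 2 carriers that rose, 1 that was not called and 1 that fell, with the E-box in capitals. They show that the same letters stand before carriers with different results. They lie at chr2:129198523-129198772, plus strand (Slc20a1, E-boxes 175 and 22 bases before the start), chr13:100833428-100833677, minus strand (Slc30a5, 61 bases), chr3:104638414-104638663, plus strand (Slc16a1, 200 bases) and chr13:73763447-73763696, plus strand (Slc12a7, 38 bases, before a RefSeq start that lies inside the GENCODE gene).
Slc20a1: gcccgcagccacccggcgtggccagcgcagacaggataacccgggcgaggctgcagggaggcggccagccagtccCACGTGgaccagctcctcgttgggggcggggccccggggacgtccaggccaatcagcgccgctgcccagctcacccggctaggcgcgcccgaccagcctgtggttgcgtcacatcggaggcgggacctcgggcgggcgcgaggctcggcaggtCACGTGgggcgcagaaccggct
Slc30a5: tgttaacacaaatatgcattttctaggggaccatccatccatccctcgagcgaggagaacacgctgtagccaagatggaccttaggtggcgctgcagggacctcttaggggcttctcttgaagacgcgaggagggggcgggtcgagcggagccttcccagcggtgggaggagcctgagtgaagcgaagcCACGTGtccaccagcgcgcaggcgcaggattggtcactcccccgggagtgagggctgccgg
Slc16a1: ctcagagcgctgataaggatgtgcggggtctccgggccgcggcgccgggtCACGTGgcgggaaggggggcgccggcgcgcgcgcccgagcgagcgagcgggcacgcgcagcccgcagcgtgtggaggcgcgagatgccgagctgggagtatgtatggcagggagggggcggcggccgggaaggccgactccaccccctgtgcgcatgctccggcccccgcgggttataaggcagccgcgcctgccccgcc
Slc12a7: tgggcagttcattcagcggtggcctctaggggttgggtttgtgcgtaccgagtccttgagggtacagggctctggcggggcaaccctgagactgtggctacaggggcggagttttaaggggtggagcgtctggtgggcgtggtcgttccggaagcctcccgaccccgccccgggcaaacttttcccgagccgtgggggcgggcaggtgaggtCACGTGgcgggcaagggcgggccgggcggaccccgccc

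The metal response element is the site at which the zinc sensor MTF1 binds the metallothionein and Slc30a1 promoters. Its core was searched on both strands as TGCNCNC, with any base at each N. A match to this loose pattern need not be a site that MTF1 binds. The pattern is short and was in 53.6% of all promoters, in 64.4% of those of tested genes and in 48 of the 64. Among tested symbols with a window it was in 11 of 16 that rose, 12 of 15 that fell and 10 of 12 not called. Over all genes it was in 65.2% of those that rose and 68.2% of those that fell. The window of Slc30a1 (ZnT1), the zinc exporter of the plasma membrane, is shown for this site because that gene rose while the metallothioneins fell. Its capitals mark a match on the opposite strand, 43 bases before the start, at chr1:191906531-191906780, plus strand. A match in any of these windows is a description of the letters only.
Slc30a1: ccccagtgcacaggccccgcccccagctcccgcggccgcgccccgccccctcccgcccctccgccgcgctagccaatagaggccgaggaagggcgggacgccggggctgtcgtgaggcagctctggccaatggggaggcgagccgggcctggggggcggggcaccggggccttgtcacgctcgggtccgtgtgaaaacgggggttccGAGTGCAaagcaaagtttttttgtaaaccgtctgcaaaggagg

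Of the 85 symbols, 55 had enough counts to be tested, 25 had too few and 5 had none. The test passed 41 of the 55 at an adjusted p under 0.05 in edgeR's quasi-likelihood test, 22 higher and 19 lower with ChREBP-beta. That is 74.5% of those tested (40% higher and 34.5% lower), where 58.7% of all 12166 tested genes were called (29.5% higher and 29.3% lower). Changes of at least 2-fold were called for 14 (3 higher and 11 lower), or 25.5%, where 11.5% of all tested genes had one (4.06% higher and 7.42% lower). The groups did not overlap for 42 of the 55, or 76.4%, where this held for 63.2% of all tested genes. Of these 42, 22 were higher with ChREBP-beta (31.3% of all tested genes) and 20 lower (32.0% of all tested genes). The median log2 fold change was -0.01 for the 55 and -0.004 for all tested genes, and the median absolute log2 fold change was 0.438 and 0.234. Tested symbols had a median level of 34.4 CPM, where all tested genes had 30.1 CPM. The shares over all genes are the comparison for the counts of each carrier group and companion list below. No group or list was tested as a set. For 3 of the 55 (Slc16a10, Slc16a4 and Slc9a7) each GFP library but not each ChREBP-beta library had over the minimum of counts, so these entered the test through the GFP group.

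**Figure D1:**
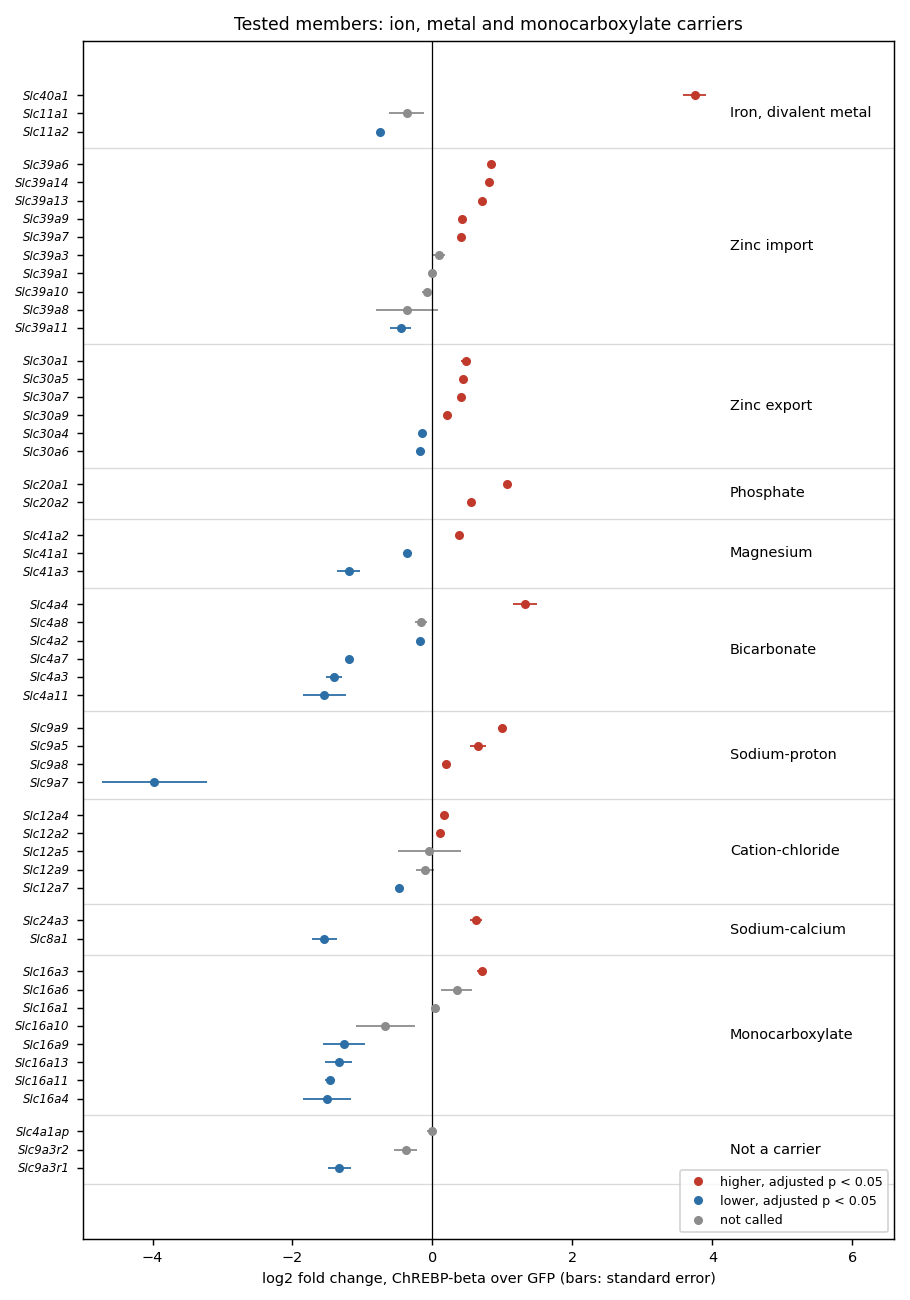
Log2 fold change, ChREBP-beta over GFP, with its standard error for 52 of the 55 tested symbols, grouped by what they carry, with red for called higher, blue for called lower and grey for not called. Both phosphate carriers and most zinc carriers lie right of 0, Slc40a1 lies farthest right at 3.75, and most bicarbonate and monocarboxylate carriers lie left of 0.

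The iron exporter had the largest rise of any tested carrier. Slc40a1 (ferroportin, chr1:45908068-45926523, minus strand, GENCODE M21 on GRCm38) had 16.2, 14.3 and 14.2 CPM in the ChREBP-beta libraries, against 1.20, 0.885 and 1.23 CPM in the GFP libraries. In counts these were 297, 270 and 246 with ChREBP-beta, against 23, 16 and 22 in GFP libraries. The groups were far apart, and the gene rose 13.4-fold (log2 fold change 3.75, SE 0.166, edgeR adjusted p = 1.02e-15). Macrophages and liver cells are known for ferroportin. In GFP replicate 3 the macrophage markers summed to 17.4 CPM and the liver markers to 24 CPM, and Slc40a1 was at 1.23 CPM. The ChREBP-beta libraries had 15.4 to 17.6 CPM of macrophage markers and 15 to 20.2 CPM of liver markers. Whether such cells had a part in the rise of Slc40a1 was not tested.

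Slc11a2 (DMT1, chr15:100387898-100425072, minus strand), the ferrous iron importer of endosomes and the gut, went the other way. It had 44.1, 40.9 and 44.1 CPM with ChREBP-beta, against 73.4, 69.4 and 73.4 CPM with GFP. All 3 ChREBP-beta libraries lay below all GFP libraries, a 1.68-fold fall (log2 fold change -0.75, SE 0.051, edgeR adjusted p = 4.98e-12). Its exons overlap a gene on the opposite strand (Gm5475). Slc11a1 (NRAMP1), a phagosomal metal carrier of macrophages, had 2.29, 1.81 and 2.20 CPM with ChREBP-beta, against 2.41, 2.99 and 2.73 CPM with GFP, and did not pass the test (edgeR adjusted p = 0.214). Per kilobase of exon, the share of the trio's summed level that Slc40a1 took was 18.4% ± 0.959 with ChREBP-beta and 1.0% ± 0.149 with GFP (SD, n = 3 each), and that of Slc11a2 was 75.3% ± 0.998 with ChREBP-beta and 93.0% ± 0.648 with GFP.

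Among 25 other iron genes, 19 were tested, of which 12 rose and 1 fell, with a median log2 fold change of 0.16. Over all tested genes, 29.5% rose and 29.3% fell. Hmox1, the heme-degrading enzyme that frees iron, averaged 76.2 ± 1.34 CPM with ChREBP-beta and 41.2 ± 0.908 CPM with GFP (SD, n = 3 each), a 1.85-fold rise (edgeR adjusted p = 5.96e-14). Slc25a37 (mitoferrin 1), which brings iron into mitochondria, averaged 248 ± 3.78 CPM with ChREBP-beta and 173 ± 1.76 CPM with GFP, a 1.44-fold rise (edgeR adjusted p = 1.77e-13). The transferrin receptor gene Tfrc, by which cells take up iron, rose 1.37-fold (edgeR adjusted p = 1.10e-08). The single fall was in Cp, encoding the ferroxidase ceruloplasmin that works with ferroportin, at 153 ± 5.03 CPM with ChREBP-beta and 284 ± 11.2 CPM with GFP, a 1.86-fold difference (edgeR adjusted p = 6.22e-17). Heph, its membrane-bound relative, rose at a far lower level and only just passed (log2 fold change 0.64, edgeR adjusted p = 4.84e-02). It averaged 2.66 ± 0.464 CPM with ChREBP-beta and 1.71 ± 0.353 CPM with GFP.

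**Figure D2:**
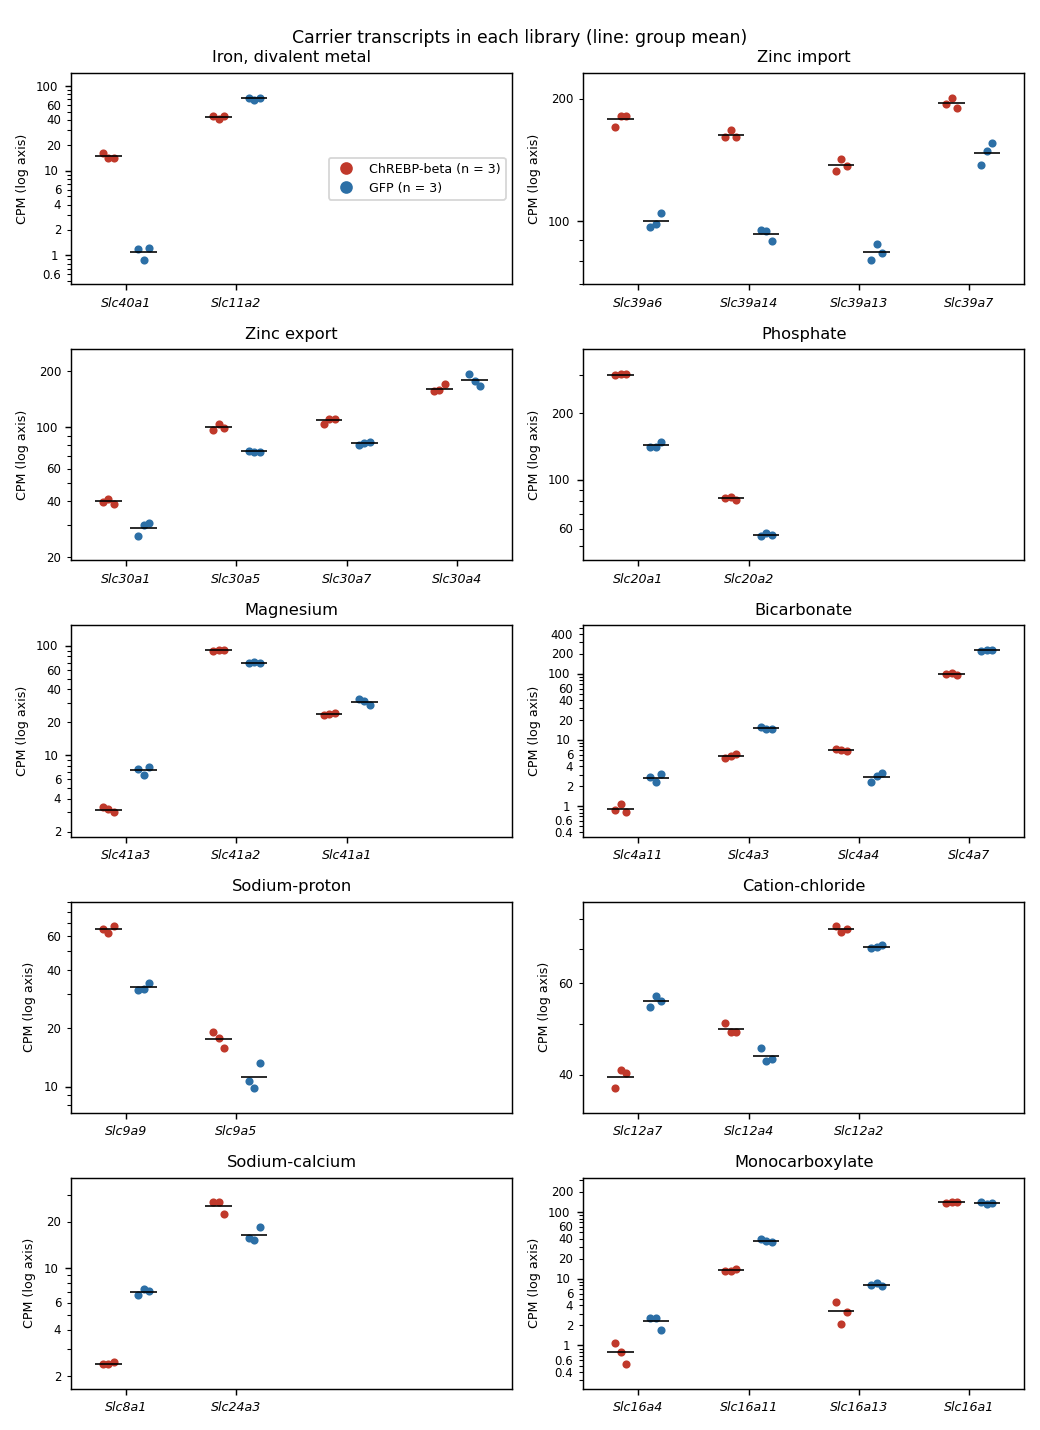
CPM on a log axis in each of the 6 libraries (points; ChREBP-beta red, GFP blue) with the group mean (line), for carriers named by the selection rule in each group. Slc40a1 lies at 14.2 to 16.2 CPM with ChREBP-beta and at 0.885 to 1.23 CPM with GFP, and Slc30a4 and Slc16a1 are the carriers whose groups overlap.

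Zinc importers were higher as a sum. The 14 Slc39 genes together had 948 ± 19.0 CPM with ChREBP-beta and 674 ± 13.0 CPM with GFP (SD, n = 3 each), a ratio of 1.41. Of the 14, 10 were tested, and 5 rose, 1 fell and 4 were not called, with a median log2 fold change of 0.25. Slc39a6 (ZIP6), a plasma membrane importer, had 170, 181 and 182 CPM with ChREBP-beta, against 96.6, 98.2 and 105 CPM with GFP. Slc39a14 (ZIP14), which carries zinc, manganese and iron not bound to transferrin, had 161, 168 and 161 CPM with ChREBP-beta, against 95.1, 94.5 and 89.6 CPM with GFP. For both, each ChREBP-beta library exceeded each GFP library by a wide margin. Slc39a6 rose 1.78-fold (log2 fold change 0.83, SE 0.038, edgeR adjusted p = 2.12e-15) and Slc39a14 rose 1.75-fold (log2 fold change 0.81, SE 0.037, edgeR adjusted p = 1.46e-15).

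Slc39a13 and Slc39a7 rose too. Slc39a13 (ZIP13), a Golgi and vesicle importer whose loss causes a connective tissue disorder, had 133, 142 and 137 CPM with ChREBP-beta, against 80.3, 87.7 and 83.5 CPM with GFP, a 1.64-fold rise (log2 fold change 0.71, SE 0.040, edgeR adjusted p = 1.08e-13). Slc39a7 (ZIP7), which releases zinc from the endoplasmic reticulum, had 194, 201 and 190 CPM with ChREBP-beta, against 137, 148 and 155 CPM with GFP, a 1.33-fold rise (log2 fold change 0.41, SE 0.039, edgeR adjusted p = 2.31e-09). Neither gene's groups overlapped, and the exons of both overlap another annotated gene. Slc39a9 (ZIP9) averaged 111 ± 0.913 CPM with ChREBP-beta and 82.7 ± 1.71 CPM with GFP (SD, n = 3 each; log2 fold change 0.42, edgeR adjusted p = 6.25e-10). Its deposited values were not whole in any of the 6 libraries and its exons overlap Erh, so its level is less certain.

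The remaining zinc importers differed little or went down. Slc39a1 (ZIP1), a ubiquitous plasma membrane importer, had 96.7, 93.2 and 96.2 CPM with ChREBP-beta, against 95.6, 94.0 and 97.5 CPM with GFP. The groups lay on top of each other (log2 fold change -0.01, edgeR adjusted p = 0.915). Slc39a3, Slc39a10 and Slc39a8 also did not pass, with log2 fold changes of 0.10, -0.08 and -0.36. Slc39a11 (ZIP11) fell, with 4.57, 6.11 and 5.03 CPM with ChREBP-beta, against 7.17, 7.30 and 7.08 CPM with GFP (log2 fold change -0.45, edgeR adjusted p = 0.0128), but without ChREBP-beta replicate 1 the adjusted p was 0.0631. Per kilobase of exon, Slc39a7 took 33.1% of the summed level with ChREBP-beta and 33.3% with GFP, Slc39a6 took 19.2% with ChREBP-beta and 14.4% with GFP, and Slc39a1 took 17.7% with ChREBP-beta and 23.8% with GFP.

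Slc30 genes move zinc or manganese out of the cytosol. Of 10, 6 were tested, of which 4 rose and 2 fell, with a median log2 fold change of 0.31. Their summed level was 547 ± 10.4 CPM with ChREBP-beta and 489 ± 10.5 CPM with GFP (SD, n = 3 each). Slc30a1 (ZnT1; chr1:191906767-191913247, plus strand) had 39.7, 41.4 and 38.9 CPM with ChREBP-beta, against 26.0, 29.6 and 30.5 CPM with GFP, a 1.40-fold rise (log2 fold change 0.48, SE 0.066, edgeR adjusted p = 1.02e-06). Slc30a5 and Slc30a7 (ZnT5 and ZnT7), which load zinc into the secretory pathway, did likewise. Slc30a5 had 97.0, 105 and 99.7 CPM with ChREBP-beta, against 74.5, 74.1 and 74.0 CPM with GFP (log2 fold change 0.44, SE 0.041, edgeR adjusted p = 1.51e-09). Slc30a7 had 105, 111 and 111 CPM with ChREBP-beta, against 80.3, 82.3 and 83.9 CPM with GFP (log2 fold change 0.41, SE 0.039, edgeR adjusted p = 3.12e-09). No library of one group reached the other in these 3 genes. Slc30a9 rose 1.16-fold (edgeR adjusted p = 2.32e-05).

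Falls among the exporters were small, and neither call held in every fit that left out a library. Slc30a4 (ZnT4), a vesicular zinc exporter, had 156, 158 and 170 CPM with ChREBP-beta, against 194, 178 and 167 CPM with GFP. The groups overlapped, and the log2 fold change of -0.16 (SE 0.044, edgeR adjusted p = 0.00415) no longer passed without GFP replicate 1, when it was -0.10 (adjusted p = 0.0516). Slc30a6 (ZnT6), the partner of ZnT5, averaged 22.1 CPM with ChREBP-beta and 24.8 CPM with GFP (log2 fold change -0.17, edgeR adjusted p = 0.0431). Its call was lost in 5 of the 6 fits that left out a library.

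The 8 companion genes of zinc response and binding gave 4 tested genes, 1 higher and 2 lower. Metallothioneins, small proteins that bind zinc and copper and whose transcripts are known to follow free zinc, fell. Mt2 had 222, 198 and 217 CPM with ChREBP-beta, against 567, 574 and 540 CPM with GFP, a 2.64-fold fall (log2 fold change -1.40, edgeR adjusted p = 1.00e-20). Mt1 had 289, 278 and 288 CPM with ChREBP-beta, against 484, 483 and 449 CPM with GFP, a 1.66-fold fall (log2 fold change -0.73, edgeR adjusted p = 6.37e-16). Mtf1, the zinc-sensing transcription factor of both genes and of Slc30a1, rose 1.16-fold (edgeR adjusted p = 0.0218). So the importers that passed the test mostly rose and Slc30a1 rose, while both metallothionein transcripts fell. Zinc itself was not measured.

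Copper and manganese genes moved by small amounts: of 10, 9 were tested, with 3 higher and 4 lower. Slc31a1 (CTR1), the high-affinity copper importer, rose 1.21-fold (edgeR adjusted p = 1.40e-06). Atp2c1, the Golgi calcium and manganese pump, rose 1.26-fold (edgeR adjusted p = 1.86e-07), and Sod2, the manganese superoxide dismutase of mitochondria, rose 1.30-fold (edgeR adjusted p = 9.84e-08).

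Both phosphate importers rose, and they gave the largest ratio of any group sum. Slc20a1 and Slc20a2 (PiT1 and PiT2) are sodium-phosphate cotransporters found in nearly all cells. Together they had 383 ± 2.35 CPM with ChREBP-beta and 199.7 ± 4.29 CPM with GFP (SD, n = 3 each), a ratio of 1.92. Slc20a1 (chr2:129198764-129211616, plus strand), whose promoter with a pair of E-boxes is printed above, had 297, 300 and 303 CPM with ChREBP-beta, against 141, 141 and 148 CPM with GFP, a 2.09-fold rise (log2 fold change 1.07, SE 0.031, edgeR adjusted p = 2.38e-19). Slc20a2 had 82.8, 83.7 and 81.5 CPM with ChREBP-beta, against 55.7, 57.2 and 56.0 CPM with GFP, a 1.47-fold rise (log2 fold change 0.55, SE 0.043, edgeR adjusted p = 6.08e-11). The replicates of each gene lay close together and the groups far apart.

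The 3 magnesium carriers of the Slc41 family did not move together. Slc41a2 (chr10:83230848-83337882, minus strand) had 89.9, 92.1 and 90.8 CPM with ChREBP-beta, against 69.3, 71.4 and 69.5 CPM with GFP, a 1.30-fold rise (log2 fold change 0.38, SE 0.040, edgeR adjusted p = 1.72e-08). Slc41a1, the sodium-magnesium exchanger of the plasma membrane, had 23.4, 24 and 24.4 CPM with ChREBP-beta, against 32.4, 31.0 and 28.5 CPM with GFP, a 1.28-fold fall (log2 fold change -0.36, SE 0.069, edgeR adjusted p = 9.95e-05). Slc41a3 had 3.32, 3.19 and 3.01 CPM with ChREBP-beta, against 7.53, 6.53 and 7.74 CPM with GFP, a 2.29-fold fall (log2 fold change -1.19, SE 0.165, edgeR adjusted p = 1.11e-06). None of the 3 genes' groups overlapped. Per kilobase of exon Slc41a2 took 74.0% ± 0.152 of the summed level with ChREBP-beta and 60.0% ± 1.28 with GFP (SD, n = 3 each).

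Of 18 other magnesium and phosphate genes, 15 were tested, with 5 higher and 6 lower. Ank, which raises pyrophosphate outside the cell and limits mineral deposition, averaged 762 ± 5.58 CPM with ChREBP-beta and 485 ± 18.6 CPM with GFP (SD, n = 3 each), a 1.57-fold rise (edgeR adjusted p = 9.39e-16). Alpl, the alkaline phosphatase that splits pyrophosphate to phosphate, had 2.34, 2.44 and 2.77 CPM with ChREBP-beta, against 0.209, 0.166 and 0.167 CPM with GFP, and rose (log2 fold change 3.75, edgeR adjusted p = 3.54e-08). Its counts were 43, 46 and 48 with ChREBP-beta, against 4, 3 and 3 in GFP libraries. Alpl thus entered the test through the ChREBP-beta group, so its call is no independent support for a rise. Mrs2, the magnesium channel of mitochondria, rose 1.28-fold (edgeR adjusted p = 2.97e-08).

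**Figure D3:**
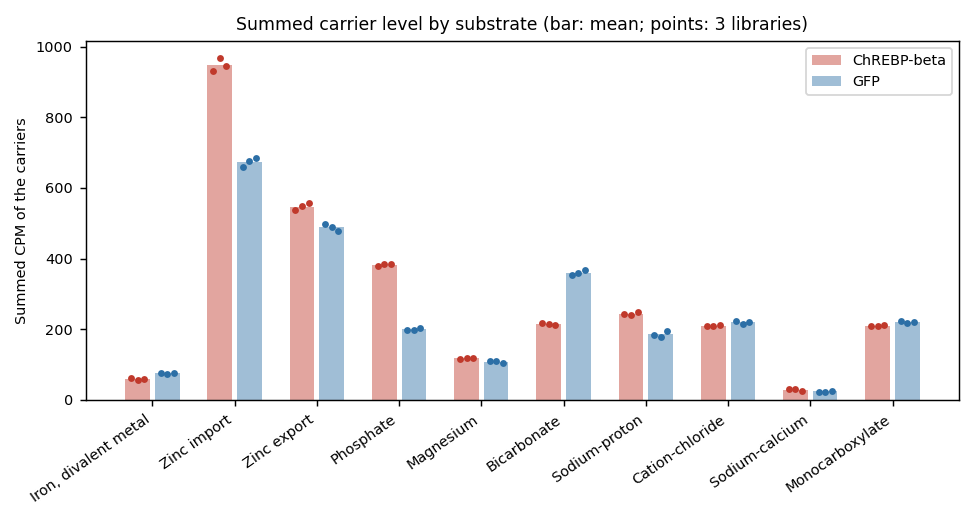
Summed CPM of each carrier group in the 6 libraries (points; bars are group means, ChREBP-beta left of GFP). Zinc import reaches 948 CPM with ChREBP-beta and 674 CPM with GFP, phosphate 383 CPM with ChREBP-beta and 199.7 CPM with GFP, and bicarbonate carriers are the group with the lowest ratio, 214 CPM with ChREBP-beta and 360 CPM with GFP.

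Bicarbonate carriers were lower as a sum, at 214 ± 1.72 CPM with ChREBP-beta and 360 ± 7.45 CPM with GFP (SD, n = 3 each), a ratio of 0.595. Of 10, 6 were tested, with 1 higher, 4 lower and 1 not called, and a median log2 fold change of -0.68. Most of the difference in the sum lay in Slc4a7 (NBCn1; chr14:14702279-14799940, plus strand), the electroneutral sodium bicarbonate cotransporter. It had 99.2, 101 and 95.8 CPM with ChREBP-beta, against 221, 226 and 231 CPM with GFP, a 2.29-fold fall (log2 fold change -1.19, SE 0.034, edgeR adjusted p = 1.40e-19). Slc4a3 (AE3), the chloride-bicarbonate exchanger of heart and brain, had 5.33, 5.69 and 6.07 CPM with ChREBP-beta, against 15.9, 14.7 and 14.5 CPM with GFP, a 2.64-fold fall (log2 fold change -1.40, SE 0.113, edgeR adjusted p = 1.18e-10). In both genes the groups were well separated.

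At low levels Slc4a11 and Slc4a4 moved in opposite directions. Slc4a11, known from corneal endothelium, had 0.870, 1.06 and 0.809 CPM with ChREBP-beta, against 2.72, 2.32 and 3.01 CPM with GFP, a 2.92-fold fall (log2 fold change -1.54, SE 0.304, edgeR adjusted p = 0.000118). Slc4a4 (NBCe1), the electrogenic sodium bicarbonate cotransporter, had 7.18, 6.96 and 6.82 CPM with ChREBP-beta, against 2.35, 2.88 and 3.17 CPM with GFP, a 2.50-fold rise (log2 fold change 1.32, SE 0.175, edgeR adjusted p = 5.99e-07). The groups did not overlap in either gene. Slc4a2 (AE2), the widespread chloride-bicarbonate exchanger, had 83.2, 78.1 and 87.4 CPM with ChREBP-beta, against 90.8, 94.2 and 95.6 CPM with GFP (log2 fold change -0.17, edgeR adjusted p = 0.00142), with deposited values that were not whole in any of the 6 libraries. Slc4a8 did not pass (log2 fold change -0.16, edgeR adjusted p = 0.131). Per kilobase of exon, Slc4a2 took 51.1% ± 2.45 of the summed level with ChREBP-beta and 37.2% ± 0.451 with GFP, and Slc4a7 took 33.3% ± 1.23 with ChREBP-beta and 49.1% ± 0.217 with GFP (SD, n = 3 each). The order of these 2 carriers was thus reversed between the groups by this measure only. In CPM without length scaling, Slc4a7 stood above Slc4a2 in both groups. Mean levels were 98.8 and 82.9 CPM with ChREBP-beta and 226 and 93.5 CPM with GFP. The exons of Slc4a2 also overlap Fastk, so its level is less certain.

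Of 12 partners of bicarbonate transport and Slc26 anion exchangers, 9 were tested. All had a log2 fold change below 0, with a median of -0.41, and 7 fell, where 29.3% of all tested genes fell. Of those that fell, Car2 and Slc26a11 entered the test through the GFP group. Slc26a11 had 22, 12 and 4 counts with ChREBP-beta, against 32, 37 and 22 counts with GFP. The list was chosen with earlier results of these data known, so this count of falls is not independent support. Carbonic anhydrases convert carbon dioxide to the bicarbonate these carriers move. Car2, a cytosolic form, had 0.0544, 0.0532 and 0.116 CPM with ChREBP-beta, against 2.35, 2.43 and 2.01 CPM with GFP, and fell (log2 fold change -4.82, edgeR adjusted p = 1.44e-08). Its counts were 1, 1 and 2 with ChREBP-beta, against 45, 44 and 36 in GFP libraries. Car2 thus entered the test through the GFP group, so its call is no independent support for a fall. Car9, a membrane form known to be induced by hypoxia, averaged 53.2 ± 4.09 CPM with ChREBP-beta and 70.5 ± 3.91 CPM with GFP (SD, n = 3 each), a 1.33-fold fall (edgeR adjusted p = 9.40e-07). Slc26a2, a sulphate carrier of cartilage, fell 1.40-fold (edgeR adjusted p = 3.44e-09).

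Sodium-proton exchangers were higher as a sum, at 243 ± 4.15 CPM with ChREBP-beta and 186 ± 8.65 CPM with GFP (SD, n = 3 each). Of 9, 6 were tested, with 4 higher, 1 lower and 1 not called, and a median log2 fold change of 0.22. Slc9a9 (NHE9; chr9:94669909-95230445, plus strand), an exchanger of endosomes, had 65.2, 61.9 and 67.6 CPM with ChREBP-beta, against 31.5, 31.9 and 34.5 CPM with GFP, a 1.99-fold rise (log2 fold change 0.99, SE 0.057, edgeR adjusted p = 1.54e-13). Slc9a5 (NHE5), best known from brain, had 19.1, 17.8 and 15.8 CPM with ChREBP-beta, against 10.6, 9.79 and 13.2 CPM with GFP, a 1.57-fold rise (log2 fold change 0.65, SE 0.109, edgeR adjusted p = 1.66e-05). Each ChREBP-beta library lay above each GFP library in both genes, with the smaller gap in Slc9a5.

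Golgi and endosomal relatives of these exchangers gave mixed results. Slc9a8 (NHE8) averaged 53.3 CPM with ChREBP-beta and 46.6 CPM with GFP (log2 fold change 0.19, edgeR adjusted p = 0.0035). Slc9a7 (NHE7), of the trans-Golgi network, fell (edgeR adjusted p = 7.04e-05); it is below the level of the naming rule and was chosen after its values were seen. Its counts were 0, 3 and 0 with ChREBP-beta, against 12, 23 and 18 in GFP libraries, and without ChREBP-beta replicate 2 that group has none. Slc9a7 thus entered the test through the GFP group, so its call is no independent support for a fall. The ratio of the scaled sums, GFP over ChREBP-beta, was 17.5, with an exact 95% interval of 5.66 to 87.3 that covers counting error only.

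The scaffold gene Slc9a3r1 (NHERF1), which tethers NHE3 and other membrane proteins to ezrin, had 3.37, 3.67 and 5.61 CPM with ChREBP-beta, against 9.89, 9.79 and 12.1 CPM with GFP, a 2.52-fold fall (log2 fold change -1.33, SE 0.165, edgeR adjusted p = 1.94e-07). Slc9a3r2 (NHERF2) did not pass (log2 fold change -0.38, edgeR adjusted p = 0.0513). Slc4a1ap had 29.5, 31.1 and 30.5 CPM with ChREBP-beta, against 31.2, 32.2 and 28.2 CPM with GFP, and the groups overlapped (edgeR adjusted p = 0.906). Ezr, the ezrin gene, averaged 78.4 ± 2.86 CPM with ChREBP-beta and 151 ± 1.88 CPM with GFP (SD, n = 3 each), a 1.93-fold fall (edgeR adjusted p = 8.91e-17), so the scaffold and its anchor were both lower.

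Ezr belongs to a list of 20 sodium and proton pumps and exchanger partners, of which 15 were tested, with 4 higher and 4 lower. The sodium pump supplies the gradient that most carriers here use. Its beta subunit gene Atp1b1 had 8.32, 7.28 and 6.76 CPM with ChREBP-beta, against 38.4, 36.1 and 38.0 CPM with GFP, a 5.02-fold fall (log2 fold change -2.33, edgeR adjusted p = 2.62e-17), and its deposited values were not all whole. Fxyd5, which encodes a small modulator of the pump, averaged 98.6 ± 5.56 CPM with ChREBP-beta and 53.4 ± 1.71 CPM with GFP, a 1.84-fold rise (edgeR adjusted p = 4.54e-14).

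Cation-chloride cotransporters, which set cell volume and chloride, changed little. Of 9, 6 were tested, with 2 higher, 2 lower and 2 not called, and their sum was 209.6 ± 1.26 CPM with ChREBP-beta and 220 ± 3.77 CPM with GFP (SD, n = 3 each). Slc12a7 (KCC4) had 37.6, 40.8 and 40.3 CPM with ChREBP-beta, against 54.0, 56.7 and 55.4 CPM with GFP, a 1.40-fold fall without overlap (log2 fold change -0.48, SE 0.054, edgeR adjusted p = 4.04e-08). Slc12a4 (KCC1) had 50.2, 48.4 and 48.3 CPM with ChREBP-beta, against 45.1, 42.5 and 42.8 CPM with GFP (log2 fold change 0.17, SE 0.054, edgeR adjusted p = 0.00838).

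Slc12a2 (NKCC1), the sodium, potassium and chloride importer, had 77.4, 75.3 and 76.3 CPM with ChREBP-beta, against 70.1, 70.6 and 71.2 CPM with GFP. The groups did not overlap, but the log2 fold change was only 0.11 (SE 0.042, edgeR adjusted p = 0.0245). The call was lost with upper-quartile or library-size scaling and without ChREBP-beta replicate 1, ChREBP-beta replicate 3 or GFP replicate 1, where the adjusted p ran between 0.0507 and 0.185. Slc12a5 (KCC2) and Slc12a9 did not pass, at log2 fold changes of -0.05 and -0.11. Of 15 kinases and volume-regulating genes that act with these carriers, 11 were tested, with 4 higher and 2 lower. Lrrc8d, a subunit of the volume-regulated anion channel, averaged 61.9 ± 2.71 CPM with ChREBP-beta and 18.5 ± 1.85 CPM with GFP (SD, n = 3 each), a 3.34-fold rise (edgeR adjusted p = 7.28e-17). Lrrc8c, another subunit, fell 1.29-fold (edgeR adjusted p = 2.83e-06), and Cab39, a scaffold of the kinases that switch the cotransporters, rose 1.16-fold (edgeR adjusted p = 2.47e-05).

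Sodium-calcium exchangers had 28.1 ± 2.44 CPM in sum with ChREBP-beta and 24 ± 1.75 CPM with GFP (SD, n = 3 each), and only 2 of 8 were tested. Slc8a1 (NCX1; chr17:81373105-81738377, minus strand), the exchanger that removes calcium from heart muscle cells, had 2.39, 2.39 and 2.49 CPM with ChREBP-beta, against 6.70, 7.36 and 7.19 CPM with GFP, a 2.92-fold fall (log2 fold change -1.54, SE 0.175, edgeR adjusted p = 4.81e-08). Slc24a3 (NCKX3), a potassium-dependent exchanger, had 26.9, 26.7 and 22.6 CPM with ChREBP-beta, against 15.8, 15.3 and 18.6 CPM with GFP, a 1.54-fold rise (log2 fold change 0.62, SE 0.090, edgeR adjusted p = 2.07e-06). The groups did not overlap in either gene, and these single tested members of the Slc8 and Slc24 families went in opposite directions. Of 8 calcium pumps and organelle calcium carriers, 6 were tested, with 2 higher and 3 lower. Atp2a2 (SERCA2), the reticulum calcium pump, rose 1.27-fold (edgeR adjusted p = 1.78e-10). Of the plasma membrane pumps, Atp2b1 fell 1.29-fold (edgeR adjusted p = 2.78e-10) and Atp2b4 rose 1.26-fold (edgeR adjusted p = 3.12e-07).

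The monocarboxylate family differed little in its sum and more in its make-up. Its 14 genes had 210.5 ± 1.95 CPM with ChREBP-beta and 221 ± 3.52 CPM with GFP (SD, n = 3 each), and of 8 tested 1 rose, 4 fell and 3 were not called, with a median log2 fold change of -0.97. Slc16a1 (MCT1; chr3:104638668-104658462, plus strand), the main lactate and pyruvate carrier of most cells, had 139, 140 and 141 CPM with ChREBP-beta, against 140, 130 and 138 CPM with GFP. The groups overlapped, and the log2 fold change was 0.04 (SE 0.035, edgeR adjusted p = 0.359). Slc16a3 (MCT4; chr11:120948480-120960868, plus strand), the lactate exporter of glycolytic muscle, had 45.3, 48.3 and 47.4 CPM with ChREBP-beta, against 27.8, 30.1 and 28.8 CPM with GFP. It rose 1.63-fold with no overlap (log2 fold change 0.70, SE 0.060, edgeR adjusted p = 2.89e-10). Its deposited value was not whole in 1 library.

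The called falls were in other members of the family. Slc16a11 (MCT11; chr11:70212752-70216417, plus strand) had 12.9, 13.2 and 14.2 CPM with ChREBP-beta, against 38.9, 36.7 and 35.6 CPM with GFP, a 2.76-fold fall (log2 fold change -1.46, SE 0.074, edgeR adjusted p = 1.45e-14). Slc16a13 (MCT13; chr11:70216789-70221064, minus strand), whose end lies 371 bases from that of Slc16a11, had 4.46, 2.07 and 3.18 CPM with ChREBP-beta, against 8.11, 8.63 and 7.80 CPM with GFP, a 2.53-fold fall (log2 fold change -1.34, SE 0.194, edgeR adjusted p = 2.18e-06). These neighbours converge on each other and fell by similar factors; whether counting used the strand is unknown. Slc16a4 (MCT5) had 1.09, 0.797 and 0.520 CPM with ChREBP-beta, against 2.56, 2.60 and 1.73 CPM with GFP, a 2.84-fold fall (log2 fold change -1.50, SE 0.347, edgeR adjusted p = 0.000646). Slc16a4 entered the test through the GFP group, its higher group, so this call is no independent support for a fall. Slc16a9 (MCT9) had 1.14, 1.17 and 0.867 CPM with ChREBP-beta, against 2.25, 2.88 and 2.56 CPM with GFP, and fell 2.40-fold (log2 fold change -1.26, edgeR adjusted p = 0.00082). Slc16a6 and Slc16a10 did not pass, with log2 fold changes of 0.34 and -0.68.

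Per kilobase of exon, Slc16a1 took 65.3% ± 0.433 of the family's summed level with ChREBP-beta and 54.8% ± 1.39 with GFP (SD, n = 3 each). Slc16a3 took 18.2% ± 0.633 with ChREBP-beta and 9.68% ± 0.554 with GFP, and Slc16a11 took 10.9% ± 0.411 with ChREBP-beta and 25.8% ± 0.854 with GFP, so the second place passed between them. Of 11 genes of lactate and pyruvate handling, 9 were tested, with 4 higher and 4 lower. Emb (embigin) and Bsg (basigin) encode the chaperones that bring monocarboxylate transporters to the membrane. Emb averaged 23.7 ± 0.737 CPM with ChREBP-beta and 57.9 ± 3.91 CPM with GFP (SD, n = 3 each), a 2.44-fold fall (edgeR adjusted p = 7.11e-15), while Bsg averaged 511 ± 2.32 CPM with ChREBP-beta and 466 ± 14.0 CPM with GFP, a 1.10-fold rise (edgeR adjusted p = 0.000223). Pfkfb3, an enzyme that speeds glycolysis, rose 3.06-fold (edgeR adjusted p = 3.21e-17). Hif1a, the hypoxia factor known to induce Slc16a3, rose 1.38-fold (edgeR adjusted p = 2.78e-13).

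**Figure D4:**
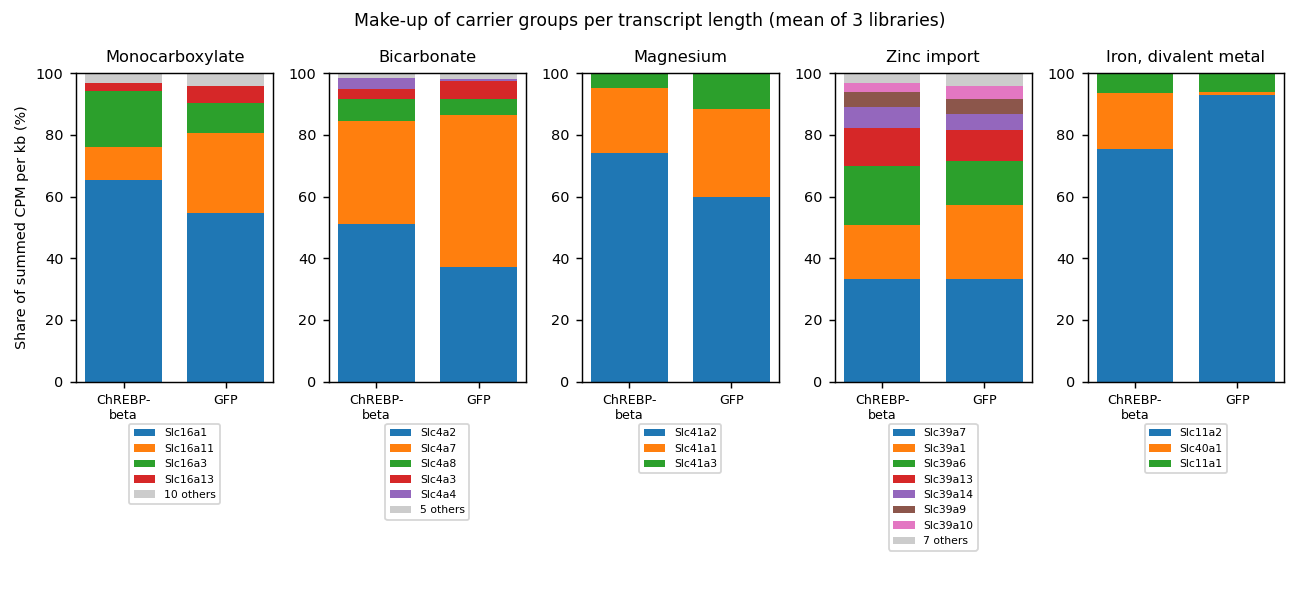
Share of each carrier group's summed CPM per kilobase of exon taken by its members, in percent (mean of 3 libraries; ChREBP-beta left, GFP right), for 5 groups. Slc40a1 fills 18.4% of the iron group with ChREBP-beta and 1.0% with GFP, and Slc16a11 fills 10.9% of the monocarboxylate group with ChREBP-beta and 25.8% with GFP.

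Levels per kilobase of exon also gave an order among members. Slc39a7 stood first in both groups, at 75.5 CPM per kb with ChREBP-beta and 56.8 CPM per kb with GFP. With ChREBP-beta, Slc20a1 (53.8 CPM per kb), Slc39a6 (43.7), Slc39a1 (40.3) and Slc16a1 (31.6) followed, with ranges over libraries that did not overlap between neighbours. With GFP, the next were Slc39a1 (40.5 CPM per kb), Slc30a4 (32.8), Slc16a1 (30.8), Slc20a1 (25.7) and Slc39a6 (24.5), and the ranges of Slc30a4 and Slc16a1 and those of Slc20a1 and Slc39a6 overlapped. By this measure Slc20a1 was in place 2 with ChREBP-beta and place 5 with GFP, Slc9a9 in place 14 with ChREBP-beta and place 26 with GFP, and Slc4a7 in place 26 with ChREBP-beta and place 8 with GFP. Slc11a2 was in place 25 with ChREBP-beta and place 11 with GFP.

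The 30 untested symbols add a few values from raw counts. Slc4a5 (NBCe2), a sodium bicarbonate cotransporter, had 19, 15 and 6 counts with ChREBP-beta, against 0, 1 and 2 counts with GFP, a ratio of the scaled sums of 13.5 (exact 95% interval 4.30 to 68.2, counting error only). Slc8a2 (NCX2) had 0 counts with ChREBP-beta and 12 with GFP, at least 3.95-fold lower when the ChREBP-beta sum is set to a floor of 3 counts. Slc16a5 had 3 counts with ChREBP-beta, against 18 counts with GFP, a GFP over ChREBP-beta ratio of 5.93 (exact 95% interval 1.73 to 31.4). For Slc16a7 (MCT2) the counts were 3 with ChREBP-beta, against 14 with GFP, and that ratio was 4.61 (1.29 to 25). Slc9a2 and Slc9a4 (NHE2 and NHE4), neighbours on chromosome 1, had 7 and 9 counts with ChREBP-beta, against 28 and 36 counts with GFP. Slc30a3 (ZnT3) had 2, 2 and 4 counts with ChREBP-beta, against 23, 9 and 2 with GFP, so its groups touched. A further 17 with counts had 15 or fewer over the 6 libraries. The 5 with none were Slc4a9, Slc30a2, Slc30a8, Slc30a10 and Slc39a12.

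Over all 9 lists of companion genes, 97 of 127 symbols were tested, with 35 higher, 33 lower and 29 not called, and a median log2 fold change of 0.04. That is a share called of 70.1%, where 58.7% of all tested genes were called. The lists were chosen with earlier results of these data known, so this share is not independent support.

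**Figure D5:**
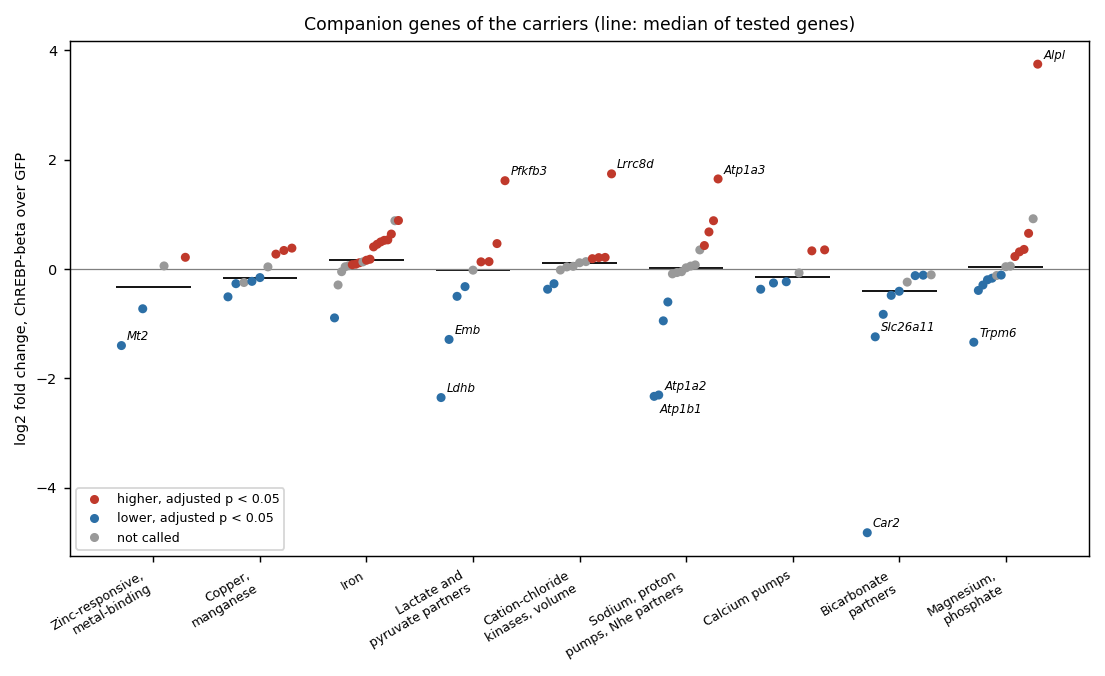
Log2 fold change, ChREBP-beta over GFP, of each tested companion gene by list (points; red called higher, blue called lower, grey not called) with the list's median (line). No tested bicarbonate partner lies above 0 and most iron genes do, and Alpl lies highest at 3.75 and Car2 lowest at -4.82, each with few counts in its lower group.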

How the data were processed

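RNA was sequenced from 6 libraries of undifferentiated C2C12 cells, 3 with ChREBP-beta and 3 with GFP, grouped by their titles. The authors deposited estimated counts per gene symbol, not normalized, in a table of 22298 rows, of which 7.74% of values are not whole. Such values can arise where a read is shared out over several genes. Reads passed through fastp, TopHat2 2.0.0 and Bowtie2 2.0.0.5 per the submitters' processing notes, which list the chicken assembly GRCg6a although the table has mouse symbols. Which mouse build, annotation and counter were used, and whether strand was used, is not stated in those notes or the labels.

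From these values, 24 repeated symbols were summed and counts were rounded. The test was edgeR 4.0.16 in R 4.3.3: filterByExpr defaults (minimum count 10, minimum total 15) kept 12166 genes, TMM scaled the libraries, and glmQLFTest compared the groups, two-sided, with Benjamini-Hochberg adjustment over all tested genes and calls under 0.05. Standard errors are the absolute log2 fold change over the square root of F. CPM values are scaled by TMM, and per kb values use the exon length of GENCODE M21 (GRCm38), matched by symbol for 85 of 85. The common biological coefficient of variation was 3.44%. The chi-square per degree of freedom between libraries of a group was 2.15 to 3.96, so none was taken for a repeat of another.

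The members and companion lists were chosen with earlier results of these data known. Carriers with values in every library are, per carrier group, up to 3 called with the largest absolute log2 fold change and at least 1 CPM in the higher group, and the one with the highest CPM. A few members that this rule or the text would name are counted but not reported individually here. Companion genes named are up to 3 per list with the smallest adjusted p. Slc16a3, Slc16a9, the other members given per library, and Tfrc, Heph and Bsg were added after their values were seen. Exact 95% intervals and the floor of 3 counts express counting error alone, because reads lacking molecular identifiers need not be independent molecules. Of the 55 tested symbols, 6 held values that were not whole and 13 of the other 49 share exon bases with another gene. As alternatives, the counts were tested with DESeq2 1.42.0 and limma-voom (limma 3.58.1), with RLE, library-size or upper-quartile scaling, without the filter or with a mean CPM of at least 5 required, with a replicate block, with a 2-fold minimum and with each library left out.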

Additional observations from a re-analysis of the deposited data

How the results depend on the processing

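Called members numbered 41 (22 higher and 19 lower). The count was 41 under RLE, upper-quartile and library-size scaling and limma-voom, 39 in DESeq2, 36 with a mean CPM of at least 5, 46 with no filter and 40 to 41 when a library was left out. A 2-fold minimum left 14 members (3 higher and 11 lower) and 12 companion genes (4 higher and 8 lower) of 68; leaving out a library gave 60 to 66 companion genes. Scaling moved the median of all genes by at most -0.046. No called member changed sign under any alternative. Among members that were not called, Slc12a5 turned to 0.015 in limma-voom and ran from -0.294 to 0.438 when a library was left out, Slc16a1 turned to -0.008 with library size only, and with a library left out Slc39a1 ran from -0.012 to 0.014 and Slc4a1ap from -0.057 to 0.034, all as log2 fold changes; the cause was not tested. Slc12a2 (adjusted p = 0.0595) and Slc30a6 (adjusted p = 0.118) were not called in DESeq2. Slc9a3r2 was called, as lower, in 5 alternatives. With the replicate number as a block, 40 members were called and Slc30a6 was lost (edgeR adjusted p = 0.0576). Same-numbered libraries did not deviate together (r across genes of -0.018, 0.0016 and -0.04). With 3 libraries per group, this cannot settle whether same-numbered libraries shared a culture or preparation. Members with few counts, such as Slc9a7, Slc4a11 and Slc16a4, are limited by depth.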
